A study of Mus musculus with 2 samples.

Results

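The Id family (inhibitors of DNA binding) comprises 4 genes, Id1, Id2, Id3 and Id4, which were chosen by symbol as the 4 family members among the 32285 genes of both count matrices. They were measured by droplet single-cell RNA sequencing of mouse THY-1+ germ cells, cultures rich in spermatogonial stem cells (SSCs) that were kept on STO fibroblasts of mouse origin as feeders. FGF9-treated cells received 20 ng/ml FGF9 for 48 h (1 library) and control cells received 0 ng/ml (1 library). Both came from testis cells of male C57 LacZ pups selected for THY-1, and both had been grown (passages 9 to 12 in the labels, passage 12 in the methods) with GDNF at 20 ng/ml, GFRA1 at 150 ng/ml and FGF2 at 1 ng/ml. The methods have cells moved at the start of treatment into medium holding either FGF9 or serum albumin, and each library held cells of several mice together. The labels do not say whether GDNF and FGF2 remained, but the study describes the control cells as left without growth factors. The described switch of medium applied to both cultures. On that reading both lacked GDNF and FGF2 during treatment, and the ratios below set FGF9 against no added growth factor. As each treatment had 1 library, no test compared the treatments. Every interval below is a 95% interval of counting error only, and "higher" and "lower" describe these libraries.

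Id proteins carry a helix-loop-helix domain but no basic DNA-binding region. They bind the ubiquitous E proteins (Tcf3, Tcf4 and Tcf12) and so keep them, and the tissue-specific basic helix-loop-helix (bHLH) factors that pair with them, away from E-box DNA. Id1, Id2 and Id3 are classic early targets of BMP signalling through SMAD1/5, and Id4 is widely used as a marker of SSCs in the mouse testis.

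In the mm10 genome Id1 lies at chr2:152736251-152737410 on the plus strand, Id2 at chr12:25093799-25097140 on the minus strand, Id3 at chr4:136143497-136145755 on the plus strand and Id4 at chr13:48261228-48266026 on the plus strand. The annotation has 2 exons for Id1, 4 for Id2 and 3 each for Id3 and Id4. Id4 is overlapped on the other strand by A330033J07Rik and Gm49291, which had 5 and 2 UMIs in FGF9-treated germ cells and 10 and 2 UMIs in control germ cells. The strand setting of the counting is not given in the sources used here.

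The promoters of Id2, Id3 and Id4 are shown because the members differed from each other in level and in response, as described below. RefSeq promoter windows (GRCm38.p6, 250 bases before to 50 after the start of transcription) were matched by symbol for 3 of the 4 members. The windows are chr12:25096043-25096342 (minus strand) for Id2, chr4:136143572-136143871 (plus strand) for Id3 and chr13:48260866-48261165 (plus strand) for Id4. Their starts of transcription are not the gene ends given above. The Id2 and Id3 windows lie inside the annotated genes, and the Id4 window ends before its annotated gene begins. Capitals mark CANNTG (the E-box), GGCGCC (a GC-rich SMAD1/5 motif), TATAA and CCAAT, on either strand.
Id2: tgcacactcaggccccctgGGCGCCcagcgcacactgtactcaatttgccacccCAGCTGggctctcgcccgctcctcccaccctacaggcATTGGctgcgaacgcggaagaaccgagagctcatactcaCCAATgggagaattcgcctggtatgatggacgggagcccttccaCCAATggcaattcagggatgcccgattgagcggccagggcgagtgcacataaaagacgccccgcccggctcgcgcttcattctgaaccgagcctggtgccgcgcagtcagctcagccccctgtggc
Id3: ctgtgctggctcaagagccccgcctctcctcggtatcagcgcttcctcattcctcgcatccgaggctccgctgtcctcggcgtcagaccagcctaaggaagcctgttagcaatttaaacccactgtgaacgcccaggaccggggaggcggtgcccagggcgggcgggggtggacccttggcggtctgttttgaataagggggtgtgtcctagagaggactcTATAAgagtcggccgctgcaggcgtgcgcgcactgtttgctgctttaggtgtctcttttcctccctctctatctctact
Id4: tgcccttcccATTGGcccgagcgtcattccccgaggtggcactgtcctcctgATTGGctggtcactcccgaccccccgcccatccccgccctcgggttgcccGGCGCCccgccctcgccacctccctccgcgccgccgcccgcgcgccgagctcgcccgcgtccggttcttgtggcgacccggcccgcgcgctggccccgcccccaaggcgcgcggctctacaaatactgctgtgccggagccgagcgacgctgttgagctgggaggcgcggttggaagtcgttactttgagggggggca

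Positions below are those of the first printed base of a match, with the start of transcription as 0. The Id2 window held GGCGCC at -231, an E-box at -196 and CCAAT at -159, -120 and -76. The Id3 window held TATAA at -29 and neither an E-box, GGCGCC nor CCAAT. The Id4 window held GGCGCC at -148 and CCAAT at -240 and -198, with no E-box and no TATAA. The SP-type box GGGCGG, searched on both strands and not capitalised, was found in all 3 windows, and the ETS-type motif CCGGAA in none of them. Among 32851 windows of the same length, 72.3% held CANNTG, 11.9% GGCGCC, 24.9% TATAA, 37.4% CCAAT, 35.7% GGGCGG and 14.9% CCGGAA. These matches describe letters only.

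The FGF9-treated library gave 4537 germ cells (median 13067 UMIs) and the control library 4157 (median 14824 UMIs), where a germ cell is a barcode with at least 2000 genes, at most 20% mitochondrial UMIs and fewer than 40 UMIs of Vim and S100a6 together. Feeder cells, with 40 or more, numbered 63 FGF9-treated (1.37% of cells passing) and 31 control (0.740%), with medians of 26481 and 20517 UMIs. All 8 germ markers were higher in germ cells than in feeder cells of the same library. They summed to 3214 and 3287 CPM (UMIs of a gene per 1000000 UMIs of the cell class) in FGF9-treated and control germ cells, against 197 and 636 CPM in the feeder cells of the same libraries. Single markers ran from Lin28a (25.4 and 35.4 CPM) to Dazl (1823 and 1729 CPM), which held most of the sum in germ cells. The 10 feeder fibroblast markers summed to 199.8 and 156.5 CPM in FGF9-treated and control germ cells, against 8980 and 7897 CPM in feeder cells, and 8 of the 10 were higher in FGF9-treated germ cells. Sertoli markers summed to 10.4 and 7.74 CPM, Leydig markers to 5.05 and 4.05 CPM and blood and endothelial markers to 5.22 and 2.47 CPM in FGF9-treated and control germ cells, and Thy1, the antigen of the original sort, stood at 0.92 and 0.64 CPM. The libraries shared 11 barcodes, 10 of them germ cells in both.

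The 4 paralogs did not respond alike. Id3 and Id1 were clearly higher in FGF9-treated germ cells, Id4 was slightly higher, and Id2 was nearly absent from germ cells of both libraries. Levels are CPM of UMIs summed over all germ cells of a library. The 3′ method counts about 1 UMI per captured transcript whatever the gene's length, so levels of different members are set side by side without scaling by length.

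Id3 had 2751 UMIs in FGF9-treated germ cells, a level of 41.0 CPM (39.5 to 42.6), against 696 UMIs and 10.3 CPM (9.53 to 11.1) in control germ cells. Its log2 ratio of FGF9-treated over control was 2.0 (1.88 to 2.12), a 3.99-fold difference (3.67 to 4.34). Id3 was thus the member that differed most between the libraries. Id1 had 2211 UMIs and 33.0 CPM (31.6 to 34.4) in FGF9-treated germ cells, against 943 UMIs and 13.9 CPM (13.1 to 14.8) in control germ cells. The log2 ratio of Id1 was 1.24 (1.13 to 1.35), a 2.37-fold difference (2.19 to 2.56). Its interval lies wholly below that of Id3.

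Id4 had 1397 UMIs and 20.8 CPM (19.8 to 22.0) in FGF9-treated germ cells, against 1128 UMIs and 16.7 CPM (15.7 to 17.7) in control germ cells. The log2 ratio of Id4, 0.32 (0.21 to 0.44), was well short of a 2-fold difference. Id2 had 43 UMIs and 0.641 CPM (0.464 to 0.864) in FGF9-treated germ cells, against 35 UMIs and 0.517 CPM (0.360 to 0.719) in control germ cells. For Id2 the log2 ratio of 0.31 had an interval of -0.37 to 1.00, so no difference was detectable at this depth, and one of up to 2-fold could not be seen. Together the members held 95.5 CPM in FGF9-treated and 41.4 CPM in control germ cells, a log2 ratio of 1.21 (1.14 to 1.27).

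**Figure D1:**
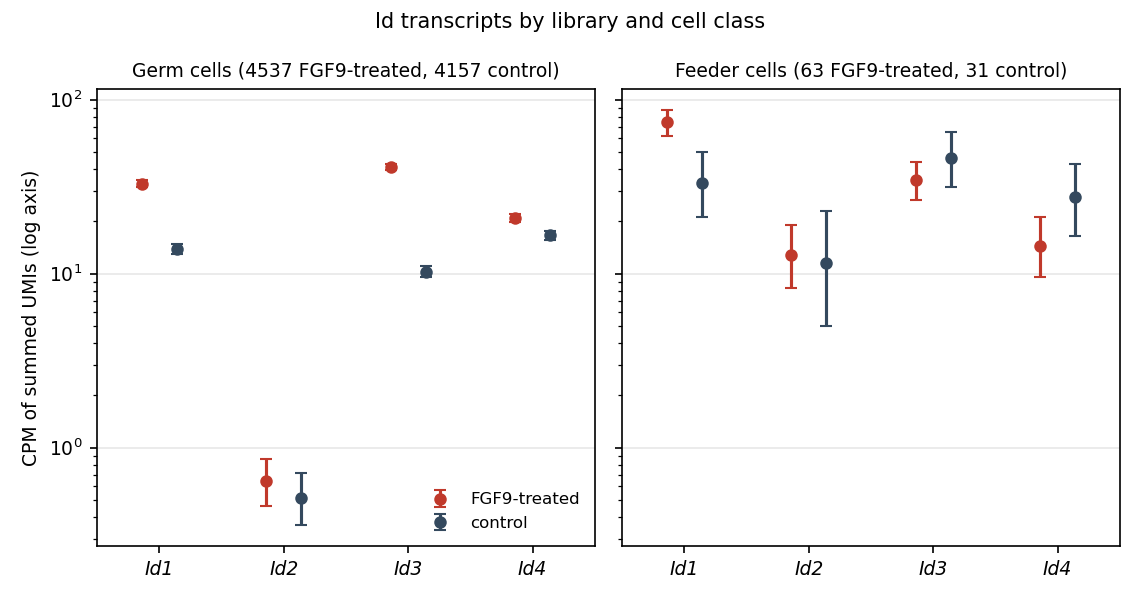
CPM of summed UMIs (log axis) of each Id gene in FGF9-treated (red, left of each pair) and control (blue) cells, for germ cells (left panel) and feeder cells (right panel); bars are 95% Poisson intervals of counting error. Id3 and Id1 lie well apart between the libraries in germ cells, Id4 lies close, and Id2 lies below 1 CPM in germ cells of both libraries and above 10 CPM in feeder cells of both.

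Of the 3 members with at least 10 CPM in a library, 2 (Id1 and Id3) had a log2 ratio of at least 1 and none had one of at most -1. In germ cells with no UMI of Mki67 or Top2a the Id1 ratio was 0.91 (0.64 to 1.18), which is short of that limit. Over all 8877 genes at that level, 1.66% were higher by this rule and 0.912% lower, and the median log2 ratio was -0.03. Id3 ranked 20 and Id1 ranked 90 of the 8877 genes by log2 ratio, while Id4 ranked 932. The ratio of Id1 lay at the 99th percentile of all these genes, which was 1.24.

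The order of the levels also differed. In FGF9-treated germ cells the order was Id3, Id1, Id4 and Id2, with log2 ratios between neighbours of 0.32 (0.23 to 0.40), 0.66 (0.57 to 0.76) and 5.02 (4.58 to 5.49). In control germ cells it was Id4, Id1, Id3 and Id2, with neighbours apart by 0.26 (0.13 to 0.38), 0.44 (0.30 to 0.58) and 4.31 (3.82 to 4.85). Each neighbour therefore differed by more than counting error in both libraries. Id3 made up 43.0% of the 6402 Id UMIs in FGF9-treated germ cells and 24.8% of the 2802 in control germ cells, while Id4 made up 21.8% and 40.3%. The share of Id1 was 34.5% in FGF9-treated and 33.7% in control germ cells.

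In feeder cells all 4 members were expressed, including Id2. Feeder Id2 stood at 12.9 CPM (24 UMIs) in FGF9-treated and 11.6 CPM (8 UMIs) in control cultures, and germ cells lay below feeder cells by log2 ratios of -4.33 (-5.08 to -3.54) and -4.48 (-5.62 to -3.16). Id1 in feeder cells was 74.0 CPM (62.2 to 87.5) in FGF9-treated and 33.2 CPM (21.1 to 49.9) in control cultures, a log2 ratio of 1.16 (0.51 to 1.86), close to that in germ cells. Id1 was thus higher in the FGF9-treated library in both cell classes, and feeder cells exceeded germ cells in both libraries.

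Id3 in feeder cells was 34.3 CPM (64 UMIs) in FGF9-treated and 46.2 CPM (32 UMIs) in control cultures, a log2 ratio of -0.43 (-1.06 to 0.23). A single control feeder cell held 26 of those 32 UMIs. Without the cell with most Id3 UMIs in each library, an alternative chosen after seeing the data, the levels were 28.8 CPM in FGF9-treated and 9.04 CPM in control feeder cells, a log2 ratio of 1.67 (0.45 to 3.18). The sign of the Id3 ratio in feeder cells therefore rested on 1 cell. Feeder Id4 was 14.5 CPM (27 UMIs) in FGF9-treated and 27.4 CPM (19 UMIs) in control cultures, a log2 ratio of -0.92 (-1.82 to 0.01).

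Transcripts freed from feeder cells can enter germ cell droplets. The feeder markers in germ cells stood at 2.23% of their feeder level in the FGF9-treated and 1.98% in the control library, and the marker with the lowest such share, Bgn, at 0.0481% and 0.0161%. At the larger of these shares feeder RNA would amount to 0.764 CPM of Id3 in FGF9-treated and 0.916 CPM in control germ cells, and to 1.65 and 0.658 CPM of Id1. These amounts are small beside the measured levels of Id1, Id3 and Id4. For Id2 the larger shares gave 0.287 CPM in FGF9-treated and 0.229 CPM in control germ cells, a large part of its 0.641 and 0.517 CPM. The shares of Bgn gave only 0.0062 and 0.0019 CPM of Id2. The feeder part of germ cell Id2 could therefore not be fixed between these values. In germ cells without any Vim or S100a6 UMI (3138 FGF9-treated and 3594 control), the log2 ratio was 2.0 (1.86 to 2.14) for Id3, 1.11 (0.98 to 1.24) for Id1 and 0.36 (0.22 to 0.49) for Id4. With at least 1 and fewer than 5 such UMIs (1346 FGF9-treated and 555 control cells), it was 1.71 (1.46 to 1.98) for Id3 and 1.39 (1.14 to 1.64) for Id1. For Id4 it was 0.01 (-0.22 to 0.25) in those cells.

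Depth differed between the libraries, so shares of cells with a UMI were taken after thinning each cell to 5000 UMIs, which left out 22 FGF9-treated and 16 control germ cells. Id3 was then found in 15.2% (14.2 to 16.3) of FGF9-treated and 4.52% (3.90 to 5.19) of control germ cells. Id1 was found in 13.0% (12.1 to 14.0) of FGF9-treated and 6.30% (5.58 to 7.09) of control germ cells. Id4 was found in 9.86% (9.00 to 10.8) of FGF9-treated and 7.87% (7.07 to 8.73) of control germ cells. The shares thus followed the order of the levels in each library. Id2 was found in 0.332% of FGF9-treated and 0.241% of control germ cells, against 7.94% and 6.45% of feeder cells.

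Unthinned, Id3 was found in 33.2% of FGF9-treated and 12.2% of control germ cells, Id1 in 29.0% and 16.0%, Id4 in 23.7% and 21.6%, and Id2 in 0.860% and 0.794%. Among feeder cells thinned alike, Id1 was found in 25.4% (15.3 to 37.9) of FGF9-treated and 12.9% (3.63 to 29.8) of control cells, Id3 in 15.9% and 9.68%, and Id4 in 6.35% and 16.1%. With so few feeder cells these intervals overlap for every member. No cell class here lacked Id1, Id3 or Id4, so the germ cell shares of these members have no background share beside them other than the estimate from feeder markers.

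**Figure D2:**
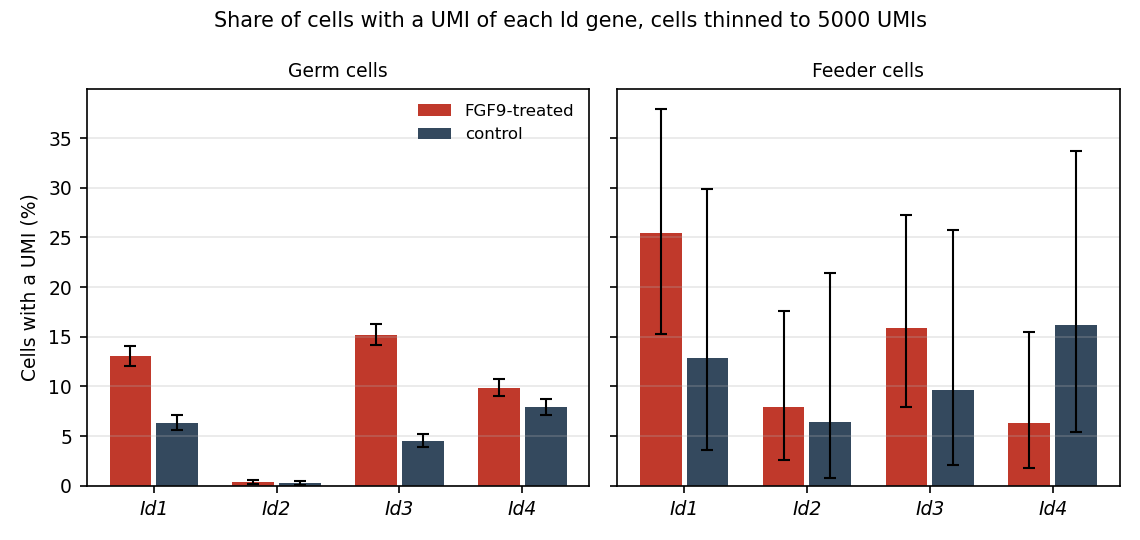
Percentage of cells with at least 1 UMI of each Id gene after thinning to 5000 UMIs per cell, in FGF9-treated (red, left of each pair) and control (blue) germ cells (left panel) and feeder cells (right panel), with exact binomial 95% intervals. In germ cells Id3 reaches 15.2% in FGF9-treated against 4.52% in control cells, whereas feeder intervals overlap for each gene.

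The members also varied in how unevenly their UMIs were spread over cells. Unthinned, 2.89% of FGF9-treated and 0.313% of control germ cells held 4 or more Id3 UMIs, and the richest cells held 15 and 6. For Id1 the shares with 4 or more were 1.96% in FGF9-treated and 0.577% in control germ cells, and for Id4 only 0.287% and 0.0722%. At equal depth (5000 UMIs) the variance of Id3 UMIs over their mean, which is 1 for random counting alone, was 1.40 in FGF9-treated and 1.22 in control germ cells. The same quotient was 1.25 and 1.18 for Id1, 1.05 and 1.07 for Id4 and 1.00 and 1.00 for Id2. By this quotient Id3 and Id1 exceeded Id4 in both libraries. Unthinned, the richest 5% of FGF9-treated germ cells for each gene held 35.1% of Id3, 37.9% of Id1 and 37.7% of Id4 UMIs. In control germ cells these shares were 56.9%, 51.6% and 38.7%. Both measures can depend on a gene's level, and unevenness apart from level was not tested.

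Few thinned cells held UMIs of several members, and 1 UMI among 5000 equals 200 CPM, above the germ cell level of every member. Unthinned, 18.0% of FGF9-treated and 7.41% of control germ cells had 2 members, and 3.44% and 0.794% had 3. All 4 were found in 6 FGF9-treated and 0 control germ cells, so low co-detection partly reflects depth. At 5000 UMIs per cell, 66.3% of FGF9-treated and 82.1% of control germ cells had none of the 4, 29.1% and 16.9% had 1, 4.34% and 1.01% had 2, and 9 FGF9-treated and 0 control cells had 3. UMIs of Id1 and Id3 were found together in 93 FGF9-treated germ cells, where 89.5 were expected from the separate shares, a quotient of 1.04 (0.84 to 1.27). In control germ cells they were found together in 9 cells, where 11.8 were expected (0.76, 0.35 to 1.45). For Id1 with Id4 the quotient was 0.98 in FGF9-treated and 0.78 in control germ cells, and for Id3 with Id4 it was 0.93 and 0.95. At equal depth none of these intervals left out 1.

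Without thinning, cells with both Id1 and Id3 exceeded the expected number by 1.27 times (1.16 to 1.38) in FGF9-treated and 1.45 times (1.20 to 1.74) in control germ cells. Depth varied between cells of each library. With another random draw at 5000 UMIs per cell the quotient was 1.19 (0.98 to 1.44) in FGF9-treated and 1.25 (0.67 to 2.15) in control germ cells, so an excess at equal depth could be neither shown nor dismissed from these counts. At 8000 UMIs the quotient of Id1 with Id3 was 1.14 (0.99 to 1.31) in FGF9-treated and 0.96 in control germ cells, and that of Id1 with Id4 was 0.90 and 0.65, with an interval of 0.42 to 0.95 in control. Unthinned pairs with Id2 rested on at most 25 cells; in FGF9-treated cells Id2 lay above the expected number with Id1 (1.86, 1.15 to 2.84) and with Id3 (1.93, 1.25 to 2.85).

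**Figure D3:**
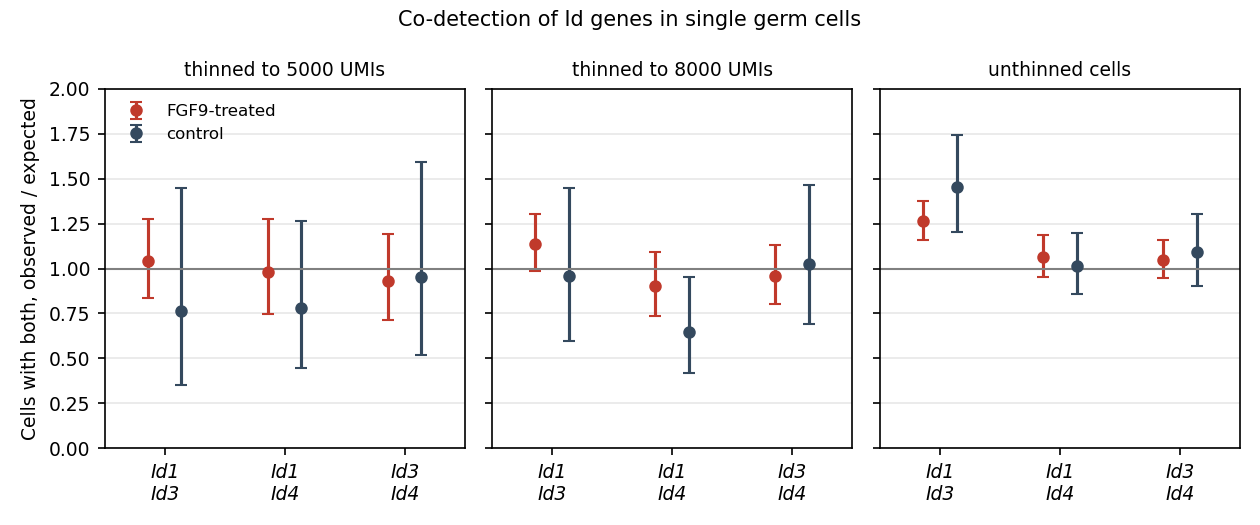
Number of germ cells with UMIs of both genes of a pair over the number expected from their separate shares, in FGF9-treated (red, left of each pair of points) and control (blue) cells, at 5000 and 8000 UMIs per cell and unthinned; bars are exact Poisson 95% intervals and the grey line is 1. At 5000 UMIs every interval drawn includes 1. Of the 3 pairs drawn unthinned only Id1 with Id3 has intervals wholly above 1, at 1.27 in FGF9-treated and 1.45 in control cells. At 8000 UMIs the control interval of Id1 with Id4 (0.42 to 0.95) lies below 1.

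Germ cells were next divided by a UMI of a marker after thinning, and the Id levels of each class taken from all UMIs of its cells. Gfra1, the GDNF co-receptor, and Ret, its signalling partner, are expressed by SSCs and their nearest progeny, and cells with both numbered 496 in the FGF9-treated and 76 in the control library. In them Id3 stood at 44.8 CPM (39.9 to 50.2) in FGF9-treated and 32.2 CPM (22.4 to 44.8; 35 UMIs) in control cells, a log2 ratio of 0.48 (-0.03 to 1.03). In the other germ cells Id3 stood at 40.6 CPM in FGF9-treated and 9.94 CPM in control cells, a log2 ratio of 2.03 (1.91 to 2.16). The few Gfra1 and Ret control cells thus had an Id3 level closer to that of FGF9-treated cells than the other control germ cells had. The interval still allows a log2 ratio of up to 1.03.

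The same held for cells with Etv5, an ETS factor needed for SSC self-renewal, of which there were 619 FGF9-treated and 40 control cells. Id3 stood at 45.6 CPM in FGF9-treated and 36.9 CPM (22.9 to 56.5; 21 UMIs) in control cells with Etv5. Within the control library, cells with the markers exceeded cells without them in Id3 by log2 ratios of 1.70 (1.16 to 2.19) for Gfra1 and Ret and 1.88 (1.17 to 2.5) for Etv5. Within the FGF9-treated library the same log2 ratios were 0.14 (-0.03 to 0.32) and 0.18 (0.03 to 0.33). Without the cell with most Id3 UMIs in each library, the levels with Gfra1 and Ret were 43.1 CPM in FGF9-treated and 27.2 CPM in control cells. With Etv5 they were 44.3 and 32.5 CPM. None of these control cells carried a barcode found in both libraries. Id1 in control cells with Gfra1 and Ret was 16.6 CPM, a log2 ratio to the other control cells of 0.25 (-0.51 to 0.92), so no such difference was detectable for Id1. Id4 in control cells with Gfra1 and Ret was 25.7 CPM (28 UMIs), a log2 ratio to the other control cells of 0.64 (0.05 to 1.18), against 0.08 (-0.18 to 0.33) within the FGF9-treated library.

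Id1 and Id3 were both higher in germ cells with Mki67, a marker of proliferating cells (1168 FGF9-treated and 394 control cells). Id1 stood at 46.6 CPM in FGF9-treated and 24.5 CPM in control cells with Mki67, above the cells without it by log2 ratios of 0.80 (0.67 to 0.92) and 0.97 (0.73 to 1.20). Id3 stood at 53.6 CPM in FGF9-treated and 16.0 CPM in control cells with Mki67, above the cells without it by 0.60 (0.49 to 0.71) and 0.74 (0.45 to 1.02). Id2 was higher too, on only 27 UMIs in FGF9-treated and 12 UMIs in control cells with Mki67. Its log2 ratios to the cells without Mki67 were 1.89 (0.94 to 2.88) in FGF9-treated and 2.0 (0.85 to 3.06) in control cells. Id4 did not follow, with log2 ratios of -0.02 (-0.19 to 0.14) in FGF9-treated and 0.19 (-0.07 to 0.44) in control cells. Cells with Mki67 made up 25.9% of FGF9-treated and 9.51% of control germ cells. Among germ cells with no Mki67 UMI after thinning the log2 ratio of FGF9-treated over control was 1.10 (0.96 to 1.23) for Id1 and 1.88 (1.75 to 2.03) for Id3. Such cells can still hold Mki67 UMIs at full depth.

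Cells with Mki67 were also deeper, with medians of 16573 UMIs in FGF9-treated and 17738 UMIs in control cells, and the part of depth in these differences was not tested. In germ cells of 10000 to 20000 UMIs the log2 ratio of FGF9-treated over control was 1.29 (1.15 to 1.44) for Id1, 2.01 (1.85 to 2.17) for Id3 and 0.46 (0.31 to 0.61) for Id4. Above 20000 UMIs it was 1.20 (1.02 to 1.38) for Id1, 2.02 (1.81 to 2.23) for Id3 and 0.15 (-0.06 to 0.35) for Id4. Below 10000 UMIs (976 FGF9-treated and 408 control cells) it was 1.30 (0.78 to 1.87) for Id1, 1.67 (1.21 to 2.17) for Id3 and -0.08 (-0.50 to 0.35) for Id4. A higher Id4 was thus detectable only in the middle range of depth.

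Germ cells with Nefm, which encodes a neurofilament subunit, numbered 1890 FGF9-treated and 279 control cells. Id1 stood at 41.7 CPM in FGF9-treated and 28.6 CPM in control cells with Nefm, and Id3 at 51.1 and 20.6 CPM. Both exceeded the cells without Nefm, Id1 by log2 ratios of 0.67 (0.55 to 0.79) in FGF9-treated and 1.15 (0.88 to 1.42) in control cells and Id3 by 0.62 (0.51 to 0.73) and 1.11 (0.78 to 1.42). For Id4 these were 0.29 (0.14 to 0.44) and 0.04 (-0.30 to 0.38).

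Id1 and Id3 parted in cells with Kit, the receptor that appears as spermatogonia differentiate (54 FGF9-treated and 240 control cells). Id1 was higher in cells with Kit, at 54.1 CPM (45 UMIs) in FGF9-treated and 22.3 CPM (88 UMIs) in control cells, log2 ratios to the cells without Kit of 0.72 (0.27 to 1.15) and 0.73 (0.40 to 1.05). Id3 was not, at 27.7 CPM (23 UMIs) in FGF9-treated and 7.84 CPM (31 UMIs) in control cells, log2 ratios of -0.57 (-1.23 to 0.01) and -0.41 (-0.98 to 0.11). Cells with Sohlh1, a bHLH factor of differentiating spermatogonia, had less Id3 than the others, with log2 ratios of -0.51 (-0.64 to -0.39) in FGF9-treated and -0.30 (-0.52 to -0.09) in control cells. The median of the surface KIT tag was 310.5 counts in FGF9-treated cells with Id1 and 309 in those without. In control cells it was higher with Id1, at 482 counts against 436 without. For Id3 the medians with and without a UMI were 305 and 310 counts in FGF9-treated cells and 431 and 439 counts in control cells.

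Cells with Neurog3 or Sox3, which mark progenitor spermatogonia, had Id levels near those of all germ cells. With Neurog3, Id3 stood at 41.7 CPM in FGF9-treated and 9.95 CPM in control cells, a log2 ratio of 2.07 (1.73 to 2.41). With Stra8, a gene induced by retinoic acid, Id3 stood at 41.2 CPM in FGF9-treated and 6.54 CPM (11 UMIs) in control cells, and Id1 at 33.6 and 20.2 CPM. Id4 lay between 19.9 and 23.4 CPM in FGF9-treated and between 13.2 and 25.7 CPM in control cells over the 9 classes, a narrower spread than that of Id3 in both libraries. Control Id4 was lowest in cells with Kit and highest in those with Gfra1 and Ret. Id2 had at most 27 UMIs in any class and is compared only for Mki67, above.

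**Figure D4:**
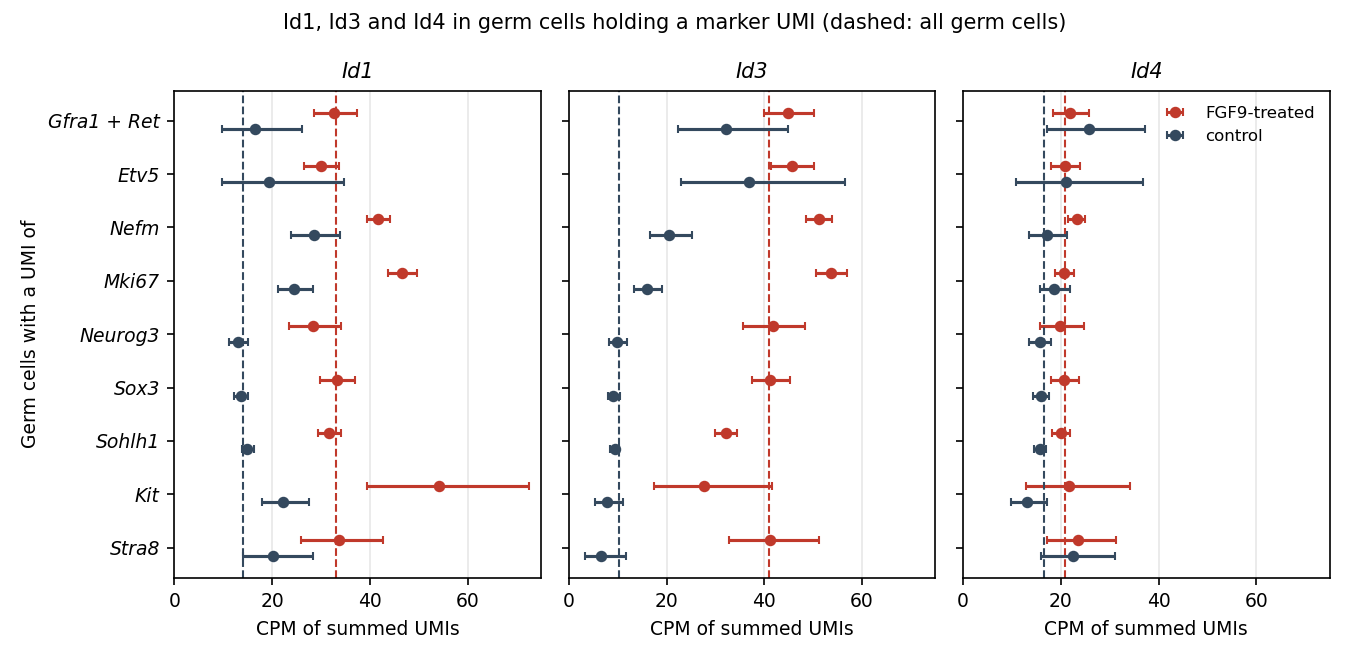
CPM of Id1, Id3 and Id4 in germ cells with a UMI of the marker on the left, in FGF9-treated (red, upper of each pair) and control (blue) cells, with 95% Poisson intervals; dashed lines are the levels over all germ cells. Control Id3 is highest in cells with Gfra1 and Ret (32.2 CPM) or Etv5 (36.9 CPM), against 10.3 CPM over all control germ cells, and FGF9-treated Id4 lies between 19.9 and 23.4 CPM in every row, while control Id4 runs from 13.2 CPM (Kit) to 25.7 CPM (Gfra1 and Ret).

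Genes most like each member were sought by the lower of the 2 libraries' Pearson r over germ cells, on log2(UMI + 1) at 5000 UMIs, among 6290 genes with at least 20 CPM in both. For Id1 they were Ptma (0.091), Mki67 (0.080) and Ube2c (0.077). For Id3 they were Ccnd2 (0.057), Tagln2 (0.056) and Crabp2 (0.053). For Id2 they were Trip4 (0.046), Ctsl (0.045) and Acsl3 (0.037), and for Id4 Sdc4 (0.040), Canx (0.037) and Gltp (0.036). All these correlations are weak and from sparse counts of cells that share a library, over 4515 FGF9-treated and 4141 control cells.

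The E proteins that Id proteins bind differed little between the libraries: all 3 were measured and 0 passed a log2 ratio of 1 in either direction, with a median of 0.10. Tcf3 stood at 152 CPM in FGF9-treated and 177 CPM in control germ cells (-0.22, -0.26 to -0.18), Tcf12 at 105 and 98.5 CPM (0.10) and Tcf4 at 23.8 and 21.4 CPM (0.15). The 4 Id genes summed to less than Tcf3 alone in both libraries. Tcf4 was a strong feeder transcript, at 253 CPM in FGF9-treated and 168 CPM in control feeder cells.

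Of the 18 tissue-specific bHLH factors 9 were measured, and 0 were higher and 2 lower, with a median of 0.13. The 2 were Neurog3, at 14.4 CPM in FGF9-treated and 44.6 CPM in control germ cells (-1.63), and Sohlh1, at 107 and 222 CPM (-1.05). Figla had a log2 ratio of -0.65 and Twist1, a mesenchymal factor at 186 CPM in FGF9-treated and 140 CPM in control feeder cells, one of 0.50. Of the 24 other bHLH factors 17 were measured and 0 passed in either direction, with a median of -0.01. The most different were the clock factor Arntl (0.45), Tfe3 (-0.44), the MAX partner Mxd4 (-0.43) and Bhlhe41 (0.27).

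The BMP and SMAD1/5 inputs are ligands, receptors, SMADs and antagonists of BMP signalling. Of the 25 listed 12 were measured and 0 passed in either direction, with a median of 0.10. Over all 8877 genes 1.66% were higher and 0.912% lower, so 0 of 12 is near the general share. Among listed inputs below 10 CPM in both libraries, Bmp4 had 60 UMIs in FGF9-treated and 23 UMIs in control germ cells (1.40, 0.68 to 2.16). Acvr1 had 339 and 513 UMIs (-0.58, -0.79 to -0.38). The ligand Bmp7 stood at 14.5 CPM in FGF9-treated and 7.96 CPM in control germ cells (0.87, 0.71 to 1.02), and the type II receptors Acvr2a and Acvr2b had log2 ratios of 0.38 and -0.34. Fst, the secreted antagonist follistatin, had 0.30. Of 13 further SMAD1/5 targets 5 were measured, of which 1 was higher and 0 lower, with a median of -0.05. The higher one was the inhibitory SMAD gene Smad7, at 22.9 CPM in FGF9-treated and 7.59 CPM in control germ cells (1.59, 1.45 to 1.74), whereas Bambi (-0.35), Hey1 (-0.22) and Atoh8 (0.20) were not.

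Immediate early genes differed in both directions: of 20 listed 13 were measured, 2 were higher and 2 lower, with a median of 0.20. Ier3 stood at 141 CPM in FGF9-treated and 39.7 CPM in control germ cells (1.83) and Fos at 81.2 and 34.7 CPM (1.23). Jund (-1.21) and Jun (-1.01) were lower. Of the 15 FGF and ERK targets 11 were measured, 9 were higher and 0 lower, with a median of 1.77. They were the Sprouty inhibitor Spry4 (5.33), the ETS factors Etv4 (4.45) and Etv5 (4.02), the ERK phosphatase Dusp6 (3.18), Spred2 (1.83), Ccnd1 (1.77), Phlda1 (1.59), Spred1 (1.47) and Il17rd (1.14). Measured genes of this list ran from 0.77 to 5.33, immediate early genes from -1.21 to 1.83 and further SMAD1/5 targets from -0.35 to 1.59. The Id1 ratio of 1.24 lay within each of these ranges and the Id3 ratio of 2.0 only within the first. A link of the Id genes to any list was not tested.

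Of the 10 cell cycle inhibitors linked to Id proteins 7 were measured and 0 passed in either direction, with a median of 0.31. Cdkn1c (p57) had a log2 ratio of 0.71, Rbl1 0.60, Cdkn1a (p21) 0.53 and Cdkn2d 0.31. All lists were chosen with earlier results of these data known.

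**Figure D5:**
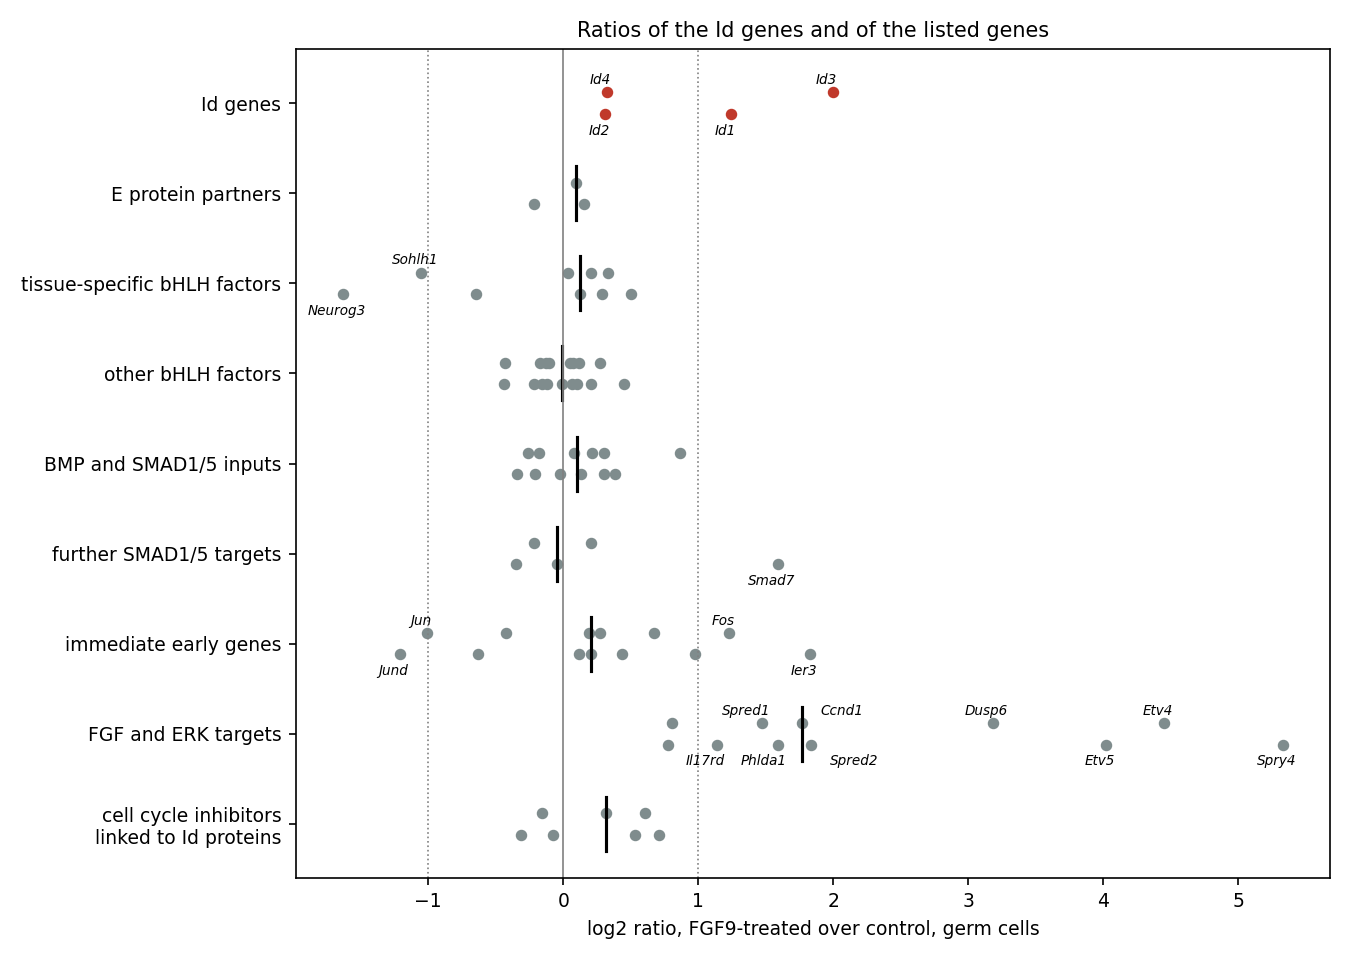
Log2 ratio of FGF9-treated over control CPM in germ cells for the 4 Id genes (red) and for the genes of each list with at least 10 CPM in a library (grey), with list medians as black bars, 0 as a solid line and 1 and -1 as dotted lines. Id3 (2.0) and Id1 (1.24) lie above 1, as do 9 of 11 FGF and ERK targets, 2 of 13 immediate early genes and 1 of 5 further SMAD1/5 targets. The E proteins and the BMP and SMAD1/5 inputs each have a median of 0.10, with no gene drawn beyond 1 or -1.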

How the data were processed

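The deposited matrices hold raw UMI counts per gene and barcode, made by the authors with Cell Ranger (3.1.0 in the matrix header) against mm10, and the submitters' notes name Seurat 3.1 for later steps. The files hold no cell types and 32235 of 32285 gene identifiers were found in a GENCODE annotation of mm10. Barcodes with at least 2000 genes and at most 20% mitochondrial UMIs were kept, and those with at least 40 UMIs of Vim plus S100a6 were taken as feeder cells. No doublet caller was run, and 1 alternative dropped barcodes (119 FGF9-treated, 75 control) deeper than 2.5 times their library's median.

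UMIs were summed over germ cells (67068085 FGF9-treated, 67689739 control) and divided by that total to give CPM. Intervals are exact Poisson (levels), exact conditional binomial (log2 ratios) and exact Clopper-Pearson (shares), at 95%. Shares and co-detection used cells thinned at random to 5000 UMIs. The steps were tested on simulated data. Other choices tried were edgeR 4.0.16 (TMM) and DESeq2 1.42.0 size factors, other cell filters and feeder limits, thinning to 8000 UMIs and subtraction of feeder RNA. Other software was R 4.3.3, Python 3.11.15, numpy 2.4.6, scipy 1.17.1 and matplotlib 3.10.9.

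The members, markers and gene lists were chosen with earlier results of these data known. Named were the members, the E proteins, up to 4 genes of each other list furthest from a log2 ratio of 0 and reaching 10 CPM in either library, every listed gene past a log2 ratio of 1, and the 3 genes most like each member.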

Additional observations from a re-analysis of the deposited data

Results flagged for a closer look

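For 2 members the feeder and germ cells of the same cultures differed between the libraries in opposite directions. The log2 ratio of FGF9-treated over control was -0.43 for Id3 in feeder cells, against 2.0 in germ cells, and -0.92 for Id4 in feeder cells, against 0.32 in germ cells. Neither difference between the cell classes was tested, and there was 1 library per treatment. A single control feeder cell held 26 of the 32 Id3 UMIs of that class, and without the feeder cell with most Id3 UMIs in each library the Id3 ratio in feeder cells was 1.67 (0.45 to 3.18), the same direction as in germ cells. For Id4 the ratio without the highest feeder cell of each library was -0.68 (-1.73 to 0.44). The germ markers summed to 197 CPM in FGF9-treated and 636 CPM in control feeder cells, and their part in these values was not tested.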

How the results depend on the processing

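Over 48 alternatives the log2 ratios of the 4 members in germ cells ran from 0.91 to 1.28 for Id1, -0.04 to 0.74 for Id2, 1.89 to 2.10 for Id3 and 0.32 to 0.49 for Id4, and 46 of the 48 moved the ratio by less than its counting interval. The other 2 came from germ cells with no UMI of Mki67 or Top2a (1257 FGF9-treated, 1081 control), where the ratio was 0.91 (0.64 to 1.18) for Id1 and 0.49 (0.24 to 0.74) for Id4; the cause was not tested. The Id1 ratio there falls below 1, the limit used for counting genes. Ranges of depth were not among these alternatives, and the Id4 ratio was -0.08 (-0.50 to 0.35) in germ cells below 10000 UMIs. The Id3 ratio in feeder cells turned to 1.67 without the feeder cell with most Id3 UMIs of each library, since 1 control cell held most of them. Of 32 alternatives for shares 15 lay outside the interval, of which 14 came from another depth, and with another random draw at 5000 UMIs the control share of Id1 was 5.31% in place of 6.30%. Of 48 alternatives for co-detection 4 did. No paired analysis was possible because there was 1 library per treatment. Counting limits Id2, with 43 and 35 UMIs in FGF9-treated and control germ cells, and every feeder value, with 63 and 31 cells; variation between cultures could not be measured for any value.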

Other observations

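Some listed genes below 10 CPM in both libraries also differed, and were chosen for mention after their values were seen. Bhlhe40, a bHLH repressor that responds to many stimuli, had 536 UMIs (7.99 CPM) in FGF9-treated and 25 UMIs (0.369 CPM) in control germ cells, a log2 ratio of 4.44 (3.86 to 5.08), and stood at 34.9 CPM in FGF9-treated and 44.8 CPM in control feeder cells. Smad6, an inhibitory SMAD gene like Smad7, had 140 UMIs in FGF9-treated and 46 UMIs in control germ cells, a log2 ratio of 1.62 (1.13 to 2.13). Egr3, an immediate early zinc finger factor, had 226 and 29 UMIs (2.98, 2.41 to 3.59), and the Sprouty-related gene Spred3 had 148 and 17 UMIs (3.14, 2.41 to 3.95). Others went the opposite way. Gata3, of the further SMAD1/5 targets, had 81 UMIs in FGF9-treated and 182 UMIs in control germ cells (-1.15, -1.55 to -0.77). Msc, of the tissue-specific bHLH factors, had 95 and 239 UMIs (-1.32, -1.68 to -0.97).

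Barcodes outside the cell filter, with too few genes or too many mitochondrial UMIs, also held Id transcripts. Id3 stood there at 15.8 CPM (59 UMIs) in the FGF9-treated and 2.26 CPM (7 UMIs) in the control library, a log2 ratio of 2.81 (1.67 to 4.18). Id1 stood at 11.0 and 7.42 CPM (0.56, -0.21 to 1.37) and Id4 at 12.6 and 8.71 CPM (0.53, -0.18 to 1.27).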
